A study of Homo sapiens with 24 samples.

Results

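The 6 Mock arrays of the series give the baseline expression of SH-SY5Y, a human neuroblastoma cell line with neuronal features, after transfection with the empty expression plasmid pCAGIG. They were chosen by their titles, Mock of experiments B to G, and are 6 of the 24 arrays of the series. The remaining arrays are from cells given the same plasmid with the FMR1 5' untranslated region, with 21 CGG repeats (V21), with 79 repeats (V79) or with 79 repeats in a condition marked 8x, and none of their values enters a level below. In all groups RNA was isolated on miRNeasy columns 24 h after transfection, and 100 ng was labelled with Cy3 and hybridised to a 1-colour Agilent array. The design text counts the 6 Mock arrays as biological replicates. No array given here is from untransfected cells, so the baseline is that of cells that had been through transfection, and all arrays are of this 1 cell line.

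Neuroblastoma arises from the sympathoadrenal branch of the neural crest, the cells that give sympathetic neurons and adrenal chromaffin cells. A small circuit of transcription factors, among them HAND2, GATA3, ISL1 and PHOX2A, holds this identity, and its output is the machinery that makes, packs and releases noradrenaline and neuropeptides. The second subject here is innate immunity: RNA and DNA sensors in the cytosol and endosome switch on interferon genes, secreted interferon binds its receptors, and the JAK kinases and STAT factors below them switch on interferon-stimulated genes through a short promoter element.

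Levels are the deposited log2 intensities, averaged over the 6 arrays and given with the SD over them (n = 6). Where a gene had several features, the brightest by that mean stood for it, which gave 20061 named genes. Their levels ran from 5.81 to 18.86 with a median of 8.43. A percentile runs from 0 for the dimmest gene to 100 for the brightest. A feature's signal depends on its probe as well as on the transcript, so ranks are ranks of signal and do not order genes by transcript number. As no detection flags were used, a dim limit was taken from 79 genes restricted to tissues such as liver, muscle, eye and skin. The 90th percentile of their levels was 7.52, and their median was 6.36. Below, a gene is above the limit if all 6 arrays exceeded it, dim if none did, and mixed otherwise. Being dim means that the signal lay where those reference genes lie, and does not show that the transcript is missing. Of all named genes 56.3% were above the limit and 36.6% were dim, and these shares are the background for every list. In the reference itself 5 of 79 genes were above the limit, the brightest being the skin keratin KRT10 at 13.81, and 64 were dim.

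**Figure D1:**
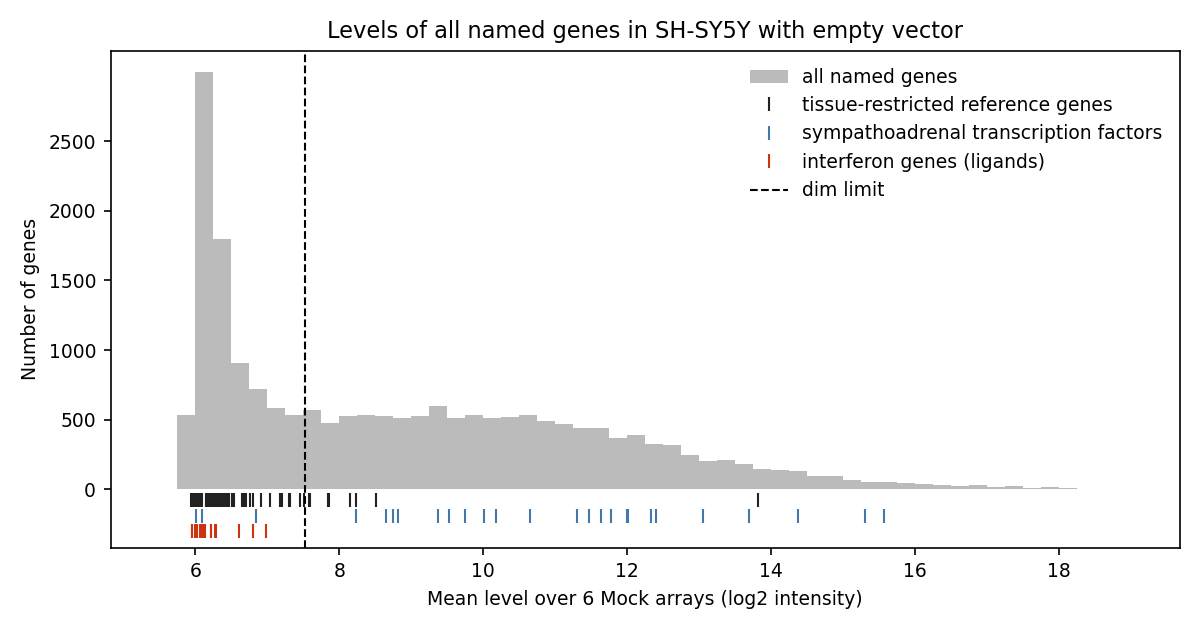
Histogram of the mean level over the 6 Mock arrays (log2 intensity) for all 20061 named genes, with the dim limit of 7.52 as a dashed line. Ticks below it mark single genes: the tissue-restricted reference genes crowd at the dim end, the sympathoadrenal transcription factors spread up to 15.56, and the 17 interferon genes all lie below 7.

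Mock D stood apart from the other arrays. Its correlations with them over all features were 0.981 to 0.987, while other pairs reached 0.997. Of 11295 genes above the limit, 379 were more than 1 log2 unit over the mean of the other 5 arrays on Mock D, against at most 26 on any other array. The median shift of 60 histone genes on Mock D was 0.45, against -0.19 to 0.02 on the others. Over all genes above the limit the median shift was -0.14 on Mock D, against -0.002 to 0.05 on the others. What sets this array apart was not tested. Counts over lists that change without Mock D, with the limit set anew from the other 5 arrays (7.47), are therefore given both ways. The median SD of genes above the limit was 0.15, and 0.11 without Mock D. FMR1 itself lay at 9.91 ± 0.20, at percentile 65.9.

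The lists hold 605 genes, of which 576 were measured. Of these, 291 were above the limit (50.5%, against 56.3% of all named genes), 223 were dim and 62 were mixed. Without Mock D 306 were above the limit. The remaining 29 are not analysed here. The lists differed in how many of their members were above the limit, from 15 of 17 catecholamine genes to 0 of 8 endothelial markers. The genes over the 90th percentile of all levels, 9.99% by construction, held 53 members.

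**Figure D2:**
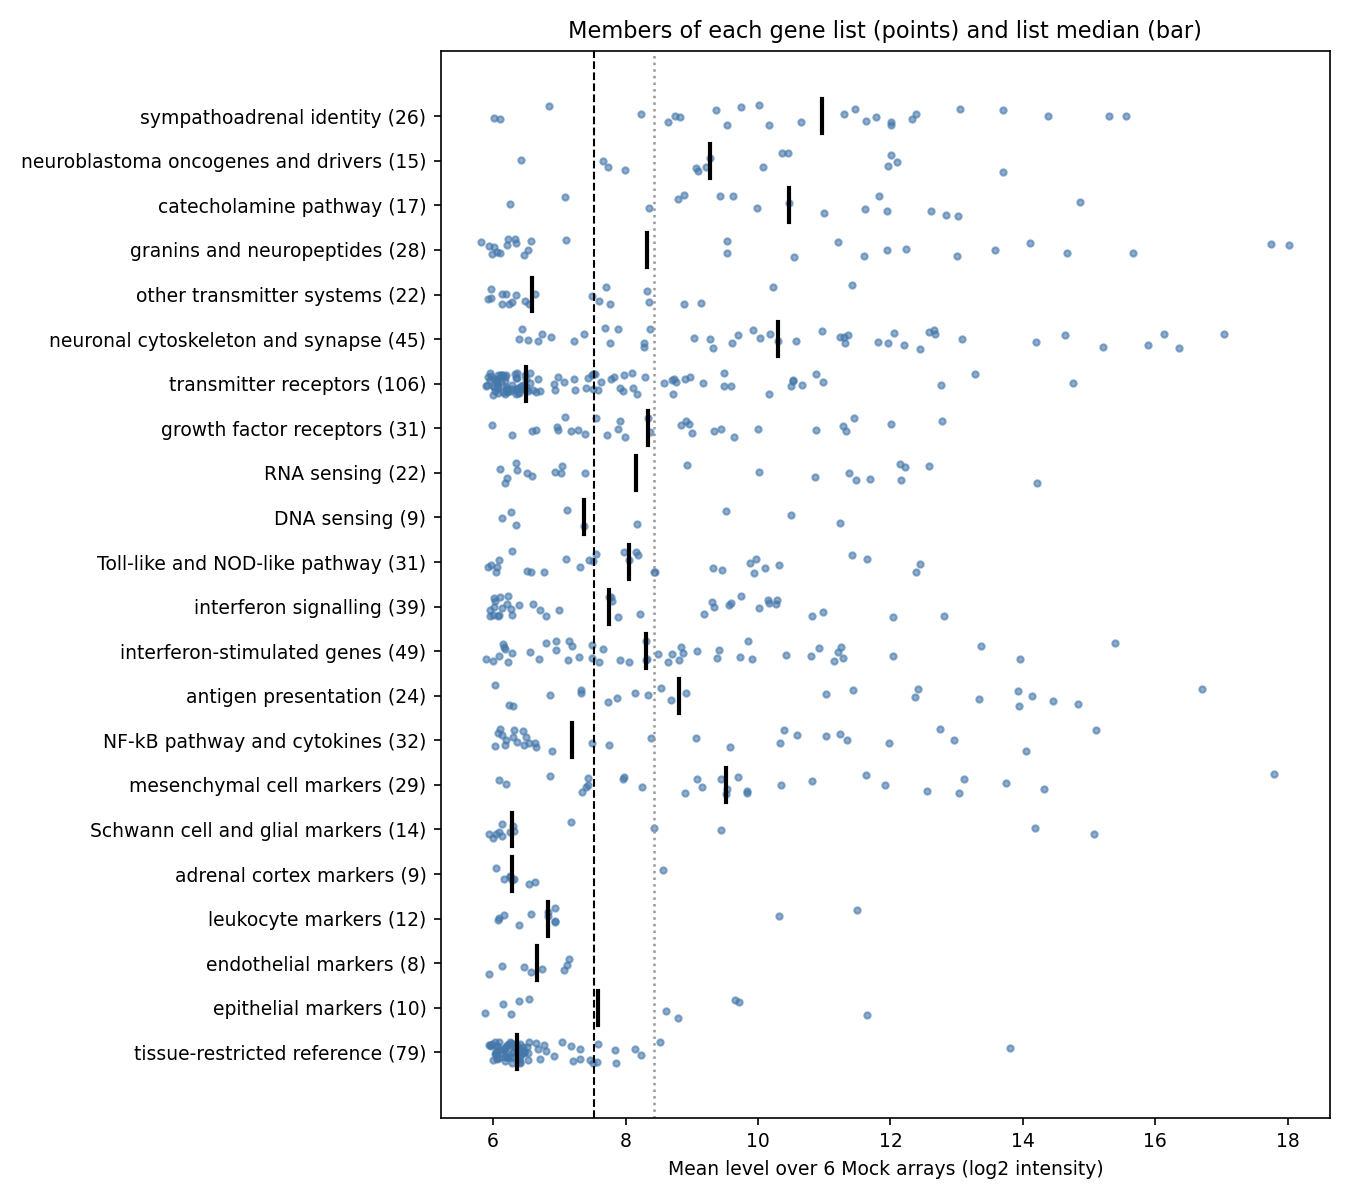
Mean level over the 6 Mock arrays (log2 intensity) of every measured member of each list, with the number of members in brackets. Points are genes, bars are list medians, the dashed line is the dim limit of 7.52 and the dotted line the median of all named genes, 8.43. The lineage, oncogene, catecholamine, neuronal, antigen presentation and mesenchymal lists have medians right of the dotted line. Left of the dashed line lie the medians of the other transmitter, transmitter receptor, DNA sensing, NF-kB and reference lists. The medians of the glial, adrenal cortex, leukocyte and endothelial lists lie there as well.

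The 4 genes taken as marks of the line were above the limit on all arrays. HAND2, a transcription factor of sympathetic precursors, gave 14.42, 14.43, 14.78, 14.43, 13.80 and 14.38 on Mock B to G, a level of 14.37 ± 0.32 at percentile 96.6. GATA3, which keeps sympathetic neurons alive and noradrenergic, gave 13.05, 13.10, 12.93, 13.09, 13.06 and 13.05. Its spread was small, at 13.05 ± 0.06, with Mock D the lowest array. DBH, the enzyme that turns dopamine into noradrenaline, gave 13.03, 13.06, 12.98, 13.16, 13.09 and 12.82, and its other 9 features lay between 12.68 and 12.96. CHGA, the granule protein chromogranin A, gave 11.19, 11.23, 11.02, 11.38, 11.27 and 11.17, at percentile 78.9. None of the 4 came near the limit on any array, and these genes did not go against the label of the cells.

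Of the 26 measured sympathoadrenal transcription factors and cofactors, 22 were above the limit (84.6%), and the same number without Mock D. Their median was 10.97, at percentile 76.6 of all genes. The brightest were TBX2 at 15.56 ± 0.11, a T-box factor of the neuroblastoma circuit, TLX2 at 15.30 ± 0.14, a homeobox factor of neural crest neurons, HAND2, and SOX11 at 13.70 ± 0.14, a factor of immature sympathetic neurons. ISL1, a LIM-homeobox factor of sympathetic neurons, lay at 12.01 ± 0.11. PHOX2A, a homeobox factor that switches on DBH and TH, was mixed: it gave 7.38, 7.49, 9.67, 10.18, 7.50 and 7.20. Only Mock D and Mock E exceeded the limit, and the other 4 arrays lay between 7.20 and 7.50. INSM1, a zinc finger factor of neuroendocrine cells, was dim at 6.10 ± 0.21, as was the LIM-only protein gene LMO3 at 6.01 ± 0.09.

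Among 15 neuroblastoma oncogenes and drivers 12 were above the limit, and 13 without Mock D. CDK4, the kinase that starts the cell cycle, was the brightest at 13.70 ± 0.09, followed by its partner cyclin D1, CCND1, at 12.10 ± 0.30. MYC gave 9.02, 9.34, 8.40, 9.37, 9.31 and 9.11, with Mock D below the rest. Of its other features the dimmest lay at 6.12 and the remaining ones between 8.69 and 9.05. MYCN, the MYC family gene that is amplified in aggressive neuroblastoma, lay beside the limit, with 7.43, 7.88, 7.19, 7.89, 7.81 and 7.73. It exceeded the limit on 4 arrays and missed it on Mock B and Mock D. The receptor kinase ALK, which is mutated in a part of neuroblastomas, was above the limit at 8.00 ± 0.18, at percentile 45.5. LIN28A, an RNA-binding protein of embryonic cells, was dim at 6.43 ± 0.21.

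All 10 measured genes of catecholamine synthesis and its cofactor were above the limit. TH, the rate-limiting tyrosine hydroxylase, was the dimmest of them, with 8.29, 8.06, 9.01, 8.69, 8.08 and 8.01, and its other feature lay below the limit at 6.72. Mock D and Mock E were again the highest arrays. DDC, which decarboxylates DOPA to dopamine, gave 11.88, 12.01, 11.83, 12.04, 12.02 and 11.91, but its other feature lay at 6.20, near the dimmest genes. CYB561, the granule cytochrome that passes electrons to DBH, lay at 14.86 ± 0.17. The pterin enzymes PCBD1 at 12.85 ± 0.16 and PTS at 12.62 ± 0.20 regenerate and make the cofactor of TH. PNMT, which makes adrenaline from noradrenaline, lay at 8.80 ± 0.15, at percentile 53.9.

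Of the 4 transporters that store or take up catecholamines, 2 were above the limit and 2 were dim. SLC6A2, the noradrenaline transporter of the cell membrane, gave 11.98, 11.85, 11.77, 11.55, 11.91 and 11.88. SLC18A1, the vesicular monoamine transporter of chromaffin cells, gave 9.94, 10.16, 9.65, 9.95, 10.18 and 10.06. Their counterparts were dim on every array: the neuronal vesicular transporter SLC18A2 gave 6.22, 6.19, 6.03, 6.38, 6.27 and 6.42, and the dopamine transporter SLC6A3 ran from 6.81 to 7.45. The 3 measured genes of breakdown were above the limit, with the aldehyde dehydrogenase ALDH2 at 10.47 ± 0.15 and the monoamine oxidases MAOB and MAOA at 9.62 ± 0.20 and 9.43 ± 0.11.

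**Figure D3:**
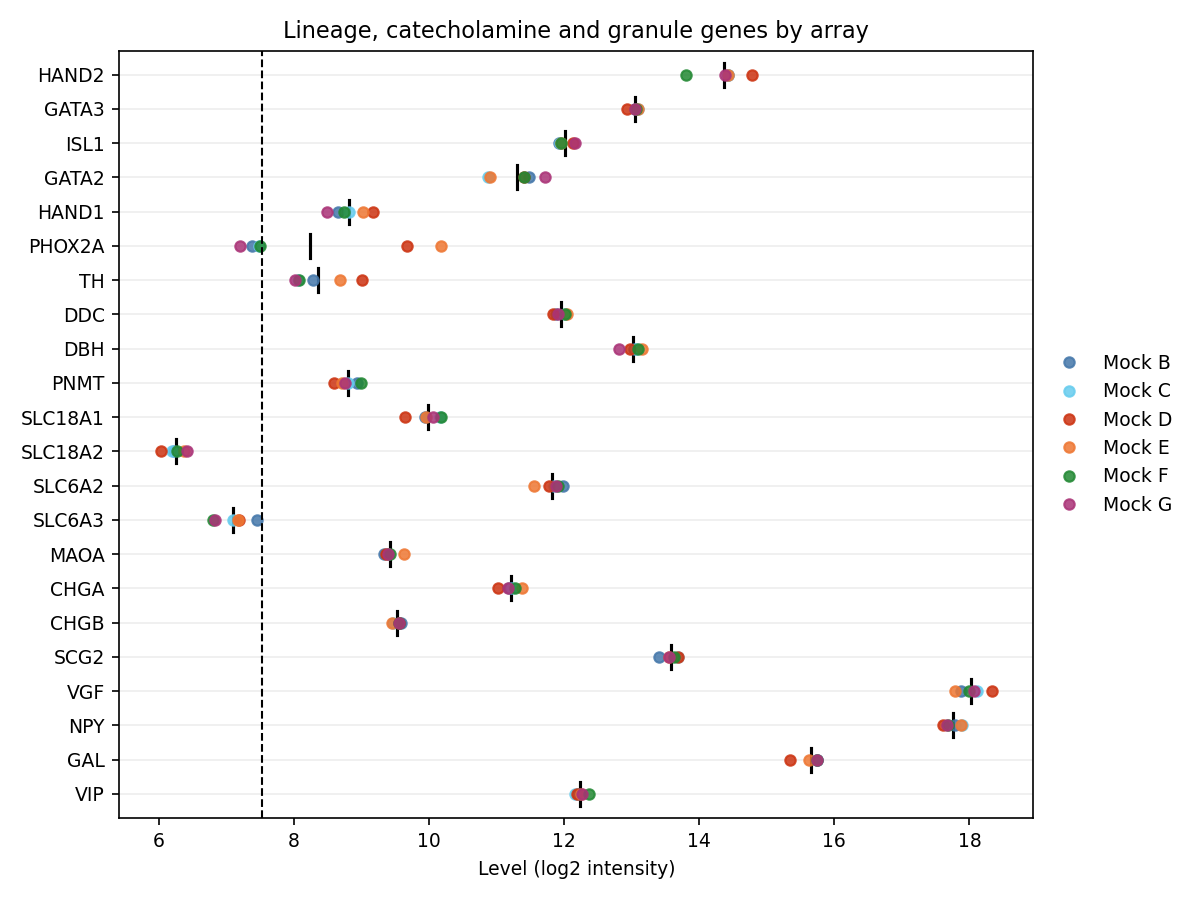
Level on each Mock array (coloured points, log2 intensity) and mean (black bar) of lineage, catecholamine and granule genes, with the dim limit of 7.52 dashed. Most genes span well under 1 log2 unit, PHOX2A splits into Mock D and Mock E above 9 and 4 arrays at the limit, and SLC18A2 and SLC6A3 lie left of the limit on all arrays.

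Granins and neuropeptides divided: 14 of 28 were above the limit, 14 were dim and 0 were mixed. VGF, a granin-like precursor of secreted peptides, gave 17.87, 18.11, 18.33, 17.78, 18.00 and 18.06 and ranked 13th of 20061 genes. NPY, neuropeptide Y of sympathetic neurons, gave 17.78, 17.89, 17.61, 17.87, 17.68 and 17.67 and ranked 29th. GAL, the precursor of galanin, gave 15.75, 15.74, 15.34, 15.63, 15.75 and 15.74. Its other feature lay at 6.51, so the level of GAL rests on 1 of its 2 features. The peptide genes NMB (neuromedin B) at 14.10 ± 0.15 and VIP (vasoactive intestinal peptide) at 12.24 ± 0.07 were also bright, and SCG2, secretogranin II, lay at 13.58 ± 0.10. Of 17 neuropeptide genes 11 were dim, down to TAC1, the precursor of substance P, at 6.02 ± 0.08 and PDYN, the dynorphin precursor, at 5.82 ± 0.09. Among the enzymes that process these precursors PAM, which amidates peptides, lay at 14.66 ± 0.13 and the carboxypeptidase CPE at 13.00 ± 0.18. The convertases that cut the precursors were both dim, PCSK1 between 5.83 and 6.10 and PCSK2 between 5.78 and 6.18.

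Of the genes of other transmitters 7 of 22 were above the limit (8 without Mock D), 11 were dim and 4 were mixed. The cholinergic genes held 3 of the 7. SLC18A3, which loads acetylcholine into vesicles, gave 11.52, 11.24, 11.72, 11.38, 11.34 and 11.31. CHAT, which makes acetylcholine, was mixed, with 8.76, 6.84, 8.27, 7.59, 7.57 and 7.57. Mock C was below the limit, and 3 arrays lay just over it, between 7.57 and 7.59. ACHE, which breaks acetylcholine down, lay at 8.36 ± 0.14, and the choline transporter SLC5A7 was dim at 5.97 ± 0.08. Of the GABA and glycine genes 3 of 6 were above the limit, with the GABA-degrading enzyme ABAT at 10.22 ± 0.13 and the GABA-making enzyme GAD1 at 8.89 ± 0.17. The vesicular glutamate transporter SLC17A7 lay at 8.32 ± 0.58, raised on Mock D (9.42, against 7.81 to 8.40 on the other arrays). SLC17A6, its relative, was dim at 5.93 ± 0.12. None of 5 serotonin and histamine genes was above the limit, and the serotonin-making enzyme TPH1 lay at 6.20 ± 0.12.

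The neuronal structure list had 36 of 45 genes above the limit (37 without Mock D), and all 15 cytoskeletal genes were among them. The brightest of these were the growth cone proteins STMN2 at 16.36 ± 0.09 and DPYSL3 at 16.13 ± 0.08, the neuronal tubulin TUBB3 at 15.90 ± 0.24 and GAP43, another growth cone protein, at 14.20 ± 0.13. PRPH, the intermediate filament of peripheral neurons, gave 11.36, 11.34, 11.49, 11.31, 11.34 and 11.34, with Mock D the highest. Among RNA-binding and surface genes, UCHL1, a neuronal ubiquitin hydrolase, lay at 17.04 ± 0.17, and CD24 and THY1, surface glycoproteins, at 14.64 ± 0.06 and 13.08 ± 0.11. The synaptic vesicle genes held 11 of 17 above the limit. SYT4, a synaptotagmin of large vesicles, lay at 15.21 ± 0.13, and SNAP25, a protein of the fusion machinery, at 10.58 ± 0.10. The classical vesicle proteins SYN1 and SYP were dim at 6.52 ± 0.06 and 6.39 ± 0.21.

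Of 106 transmitter receptor genes 26 were above the limit (24.5%), 63 were dim and 17 were mixed, with a median of 6.50 at percentile 26.5. Without Mock D the count was 28. Of the nicotinic acetylcholine receptor subunits 7 of 13 were above the limit. CHRNA3, the alpha subunit of ganglionic receptors, gave 12.99, 13.25, 13.54, 13.39, 13.18 and 13.29, at percentile 93.0. CHRNA5, which joins it in ganglionic receptors, lay at 10.52 ± 0.08 and CHRNB2 at 9.60 ± 0.11. CHRNB4, the ganglionic beta subunit, gave 7.89, 8.04, 8.85, 7.96, 7.95 and 7.90. Mock D was the highest array, and the other 5 lay between 7.89 and 8.04. CHRNA7, the subunit of receptors made of alpha subunits alone, lay at 8.90 ± 0.21. The muscle subunit CHRNA1 was dim at 6.35 ± 0.10, as was CHRNA2 at 6.06 ± 0.04.

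Of 5 muscarinic receptors, CHRM2 at 10.52 ± 0.14 and CHRM3 at 10.16 ± 0.17 were above the limit. CHRM3, which acts through calcium release, gave 10.26, 10.41, 9.92, 10.03, 10.19 and 10.16, and the other feature of CHRM2 lay below the limit at 7.16. Of 8 adrenergic receptors 3 were above the limit, led by the alpha-2 receptor ADRA2C at 12.77 ± 0.11. ADRA2A, the autoreceptor of noradrenergic neurons, gave 8.19, 8.27, 7.74, 8.29, 8.19 and 8.36, with Mock D the lowest. The beta receptor ADRB1 was dim at 6.00 ± 0.12. Of the dopamine receptors DRD4 lay at 9.49 ± 0.19 and DRD2 at 8.58 ± 0.12, and the other 3 were dim. The serotonin receptors held 3 of 13 above the limit, HTR2B at 10.99 ± 0.16, HTR4 at 10.49 ± 0.09 and HTR7 at 8.76 ± 0.26.

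The fast receptors of central synapses were at the dim end. Of 15 ionotropic glutamate receptor subunits 2 were above the limit (3 without Mock D), the AMPA receptor subunit GRIA3 at 8.73 ± 0.44 and the NMDA receptor subunit GRIN2D at 7.96 ± 0.06. GRIN1, the subunit that every NMDA receptor needs, ran from 6.00 to 6.44, and GRIA2, which keeps calcium out of AMPA receptors, from 6.13 to 6.30. Of 7 metabotropic glutamate receptors 0 were above the limit. Of 15 GABA and glycine receptor genes 1 was above it, GABBR1, a subunit of the slow GABA receptor, at 8.29 ± 0.13. Its partner subunit GABBR2 was dim at 6.12 ± 0.09, a value named after it was seen.

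Peptide receptors had 6 of 25 above the limit (7 without Mock D). GALR3, a receptor for galanin, gave 14.61, 14.17, 16.04, 15.04, 14.28 and 14.37, highest on Mock D and next on Mock E. The somatostatin receptor SSTR3 lay at 10.88 ± 0.34. BDKRB2, the constitutive bradykinin receptor, gave 10.91, 10.71, 10.45, 10.40, 10.67 and 10.85. The delta opioid receptor OPRD1 gave 8.03, 7.91, 8.17, 7.91, 7.88 and 7.92, all above the limit, while the mu opioid receptor OPRM1 ran from 6.28 to 6.53. NPY2R, a receptor for neuropeptide Y, was mixed at 7.92 ± 0.28, and only Mock D (7.45) was below the limit. VIPR2, a receptor for vasoactive intestinal peptide, was mixed at 7.50 ± 0.35. Several genes sat at the limit itself: VIPR2, OPRL1 (7.51), GRIN3A (7.51) and CD14 (7.515) were the closest below it, and GRIN2A (7.54), ERBB4 (7.55), TLR5 (7.56) and CHRNA9 (7.59) the closest over it.

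Growth factor receptors had 19 of 31 above the limit (21 without Mock D). RET, the signalling receptor for GDNF family ligands, gave 11.91, 12.10, 11.90, 11.99, 12.11 and 12.00. Its co-receptors GFRA2 and GFRA1 lay at 8.37 ± 0.07 and 7.72 ± 0.12, the latter mixed and named after its value was seen. NTRK2, the receptor for BDNF, ran from 6.83 to 7.19 and was dim. NGFR, the low-affinity neurotrophin receptor, lay at 8.83 ± 0.13. Of other kinases IGF1R, the receptor for insulin-like growth factor, was the brightest at 12.79 ± 0.30. EGFR lay at 8.97 ± 0.10. Its other features had means of 7.45 and 7.50, under the limit, and exceeded it on 2 and 3 arrays. KIT and MET, receptors for stem cell factor and hepatocyte growth factor, were dim at 6.28 ± 0.14 and 5.98 ± 0.15.

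In RNA sensing 11 of 22 genes were above the limit, with or without Mock D. RIGI, the sensor of RNA ends with a triphosphate, gave 8.91, 9.09, 14.15, 10.02, 8.88 and 9.05. The value on Mock D was 5.17 over the mean of Mock B, C, F and G, and Mock E came next. The other feature of RIGI lay at 8.68 ± 0.25 and was lowest on Mock D, at 8.28, so the rise is on 1 of its 2 features. Without Mock D the level of RIGI was 9.19. IFIH1 (MDA5), the sensor of long double-stranded RNA, was dim, with 6.95, 6.99, 6.72, 7.35, 6.91 and 7.28. DHX58 (LGP2), which assists it, was dim as well, between 6.79 and 7.04. MAVS, the mitochondrial adaptor below RIGI and IFIH1, gave 11.74, 11.78, 11.68, 11.76, 11.64 and 11.59. TRIM25, a ubiquitin ligase that acts with RIGI, lay at 12.22 ± 0.13, and ZC3HAV1, a zinc finger antiviral protein, at 12.15 ± 0.15.

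Among genes that act on double-stranded RNA, ADAR, the editing enzyme that keeps the cell's own RNA from MDA5, gave 14.02, 14.33, 14.27, 14.37, 14.10 and 14.22, at percentile 96.2. EIF2AK2 (PKR), the kinase that halts translation, gave 12.22, 12.06, 12.39, 11.90, 12.07 and 12.36, and its other feature lay at 8.92. OAS1, which makes a short RNA signal when it binds double-stranded RNA, was dim, between 6.24 and 6.70. ZBP1, a sensor that starts cell death, lay at 6.18 ± 0.13. TLR3, the endosomal receptor for double-stranded RNA, was dim, with 6.86, 7.12, 6.86, 7.04, 7.28 and 7.06. TLR8, for single-stranded RNA, was dim at 6.11 ± 0.21. The chaperone that carries these receptors to the endosome, UNC93B1, lay at 11.48 ± 0.14.

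DNA sensing had 4 of 9 genes above the limit. CGAS, the cytosolic DNA sensor, gave 6.23, 6.25, 6.33, 6.28, 6.08 and 6.44. STING1, its adaptor, gave 7.38, 7.49, 7.38, 7.33, 7.35 and 7.34, so that all 6 arrays were under the limit and Mock C came closest to it. TREX1, the exonuclease that clears cytosolic DNA, was above the limit at 10.50 ± 0.12, and IFI16, a DNA-binding protein, at 9.52 ± 0.07.

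The Toll-like and NOD-like pathway had 17 of 31 above the limit (54.8%). The count was carried by adaptors and kinases, 11 of 14, while surface receptors had 3 of 8 and NOD-like and inflammasome genes 3 of 9. TLR4, the receptor for bacterial lipopolysaccharide, gave 9.96, 10.02, 9.89, 9.97, 9.50 and 9.96, with Mock F the lowest, and its other feature lay at 9.52. LY96, the protein TLR4 needs to bind lipopolysaccharide, lay at 7.11 ± 0.13 and was dim, a value named after it was seen. TICAM1, the adaptor of TLR3 and TLR4, lay at 12.45 ± 0.14. MYD88, the adaptor of most Toll-like receptors, lay at 10.11 ± 0.24. IRF3, the factor that switches on IFNB1 first, gave 10.42, 10.22, 10.46, 10.15, 10.36 and 10.31. IRF7, which widens the response to interferon alpha genes, gave 12.36, 12.36, 12.51, 12.37, 12.26 and 12.49. Of the 9 NOD-like and inflammasome genes 5 were dim and 1 was mixed. The dim genes included the inflammasome genes CASP1 at 5.93 ± 0.06 and NLRP3 at 6.06 ± 0.08.

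**Figure D4:**
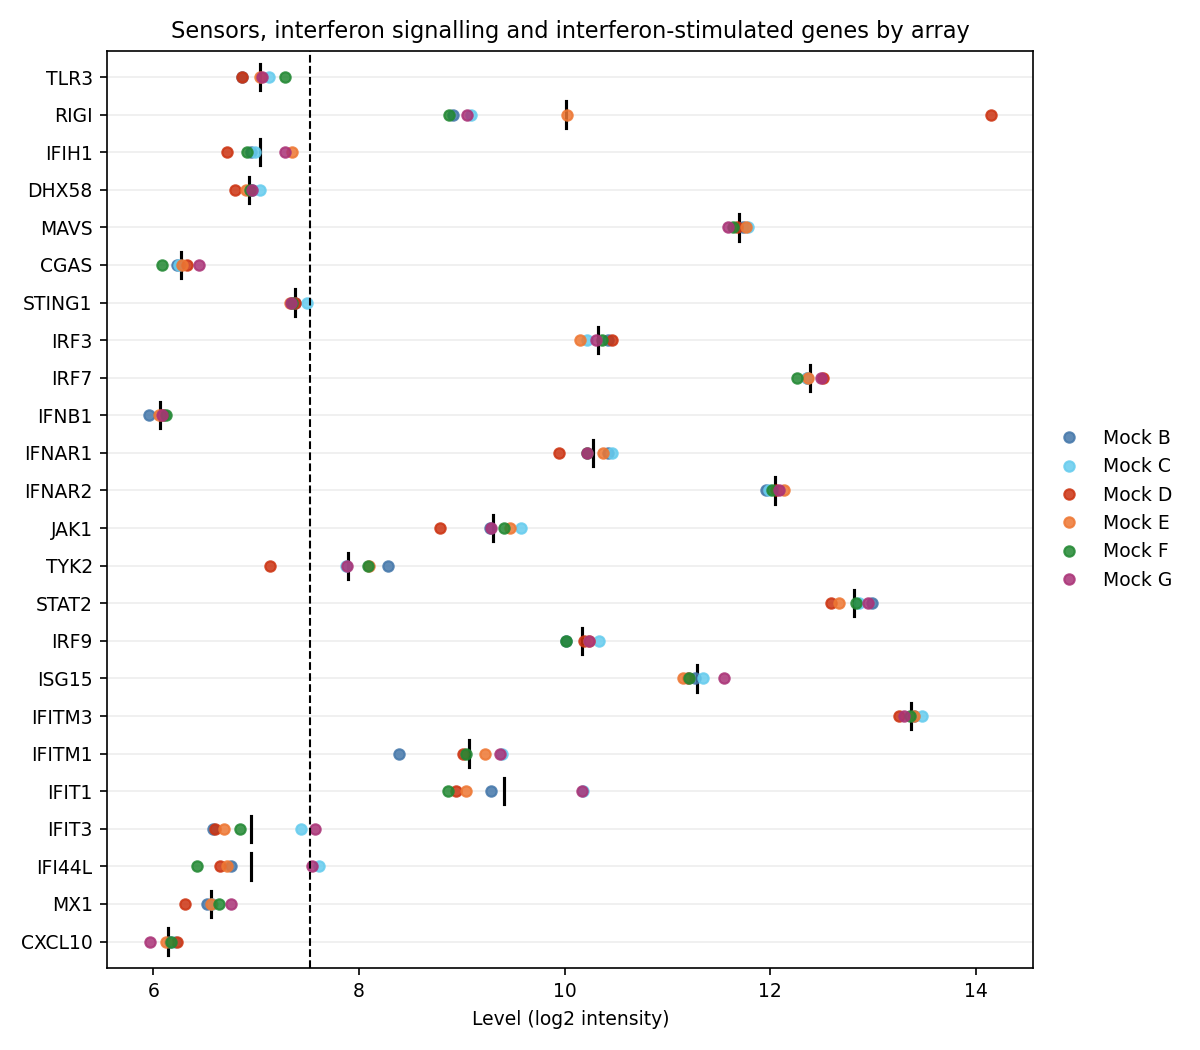
Level on each Mock array (coloured points, log2 intensity) and mean (black bar) of sensors, interferon signalling genes and interferon-stimulated genes, with the dim limit of 7.52 dashed. MAVS, IRF3, IRF7 and the interferon receptors lie right of the limit, TLR3, IFIH1, DHX58, CGAS, STING1 and IFNB1 left of it, and RIGI on Mock D lies alone at 14.15.

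None of the 17 measured interferon genes was above the limit, 15 being dim and 2 mixed, with a median of 6.11 at percentile 9.2. IFNB1, the first type I interferon to be made, gave 5.96, 6.10, 6.09, 6.05, 6.12 and 6.08, at percentile 6.4. The mixed genes each exceeded the limit on a single array, IFNL2 on Mock D (7.57) and IFNA21 on Mock B (8.40, against 6.07 to 6.46 on the others). Interferon alpha genes are close copies of each other, and a probe may read more than 1 of them.

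By contrast, 5 of 6 interferon receptor genes were above the limit, and all 6 without Mock D. IFNAR1 and IFNAR2 form the type I interferon receptor. IFNAR1 gave 10.42, 10.46, 9.95, 10.37, 10.22 and 10.22, with Mock D the lowest. IFNAR2 gave 11.96, 11.99, 12.06, 12.13, 12.02 and 12.09, and its other features lay at 10.45 and 6.94. IFNGR1, of the interferon gamma receptor, lay at 10.29 ± 0.28. IFNLR1, the specific part of the interferon lambda receptor, was mixed at 7.78 ± 0.24, and only Mock D (7.37) was below the limit.

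Of 8 kinases and transcription factors below the receptors 6 were above the limit. STAT2, a subunit of the factor that binds interferon-stimulated promoters, gave 12.99, 12.86, 12.59, 12.67, 12.83 and 12.95. IRF9, the subunit of that factor that binds DNA, gave 10.01, 10.33, 10.19, 10.24, 10.01 and 10.24. JAK1, a kinase on IFNAR2, lay at 9.30 ± 0.28. TYK2, the kinase on IFNAR1, was mixed, with 8.28, 7.87, 7.13, 8.10, 8.09 and 7.88: Mock D alone was under the limit, and without it TYK2 was above. Of 8 brakes on the pathway 7 were above the limit, among them USP18, which blocks IFNAR2, at 9.19 ± 0.28, SOCS3, a feedback inhibitor of JAK kinases, at 10.82 ± 0.13, and SOCS1, its relative, at 7.80 ± 0.13.

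The interferon-stimulated genes had 27 of 49 above the limit (55.1%, against 56.3% of all named genes), 15 dim and 7 mixed, and a median of 8.31 at percentile 48.8. Without Mock D 30 were above. The list thus spanned nearly the whole scale. SP100, a nuclear body protein, lay at 15.39 ± 0.19, though its other features lay between 6.21 and 7.67. IFITM2 at 13.95 ± 0.10 and IFITM3 at 13.37 ± 0.08, membrane proteins that block virus entry, and GBP2, a guanylate-binding protein, at 12.05 ± 0.29 came next. ISG15, the ubiquitin-like modifier, gave 11.27, 11.35, 11.20, 11.15, 11.21 and 11.55. IFIT1, which binds foreign RNA ends, gave 9.28, 10.18, 8.94, 9.04, 8.87 and 10.17. IFI27 lay at 8.32 ± 0.34 and BST2, the tether that holds virus on the cell, at 8.31 ± 0.14. MX1, the antiviral dynamin-like protein, was dim, with 6.52, 6.57, 6.31, 6.56, 6.64 and 6.75. CXCL11, a chemokine, and PARP14 were the dimmest at 5.99 ± 0.17 and 5.90 ± 0.09.

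The element that the STAT and IRF9 complex binds was looked for in the RefSeq promoter windows (GRCh38.p14), each 250 bases before to 50 after a gene's start. The letters searched were GAAA, any 2 bases and GAAA again, on either strand (read as TTTC, any 2 bases and TTTC where the match was on the opposite strand). Of 27305 windows 3.65% held them. Among the 49 interferon-stimulated genes 40 had a window, and 28 of these held the letters. SP100, the brightest gene of the list, had a window without the letters. Genes with a match were then picked by level, so matches at both ends of the scale follow from the choice. The 8 stretches below are those of the 4 brightest and the 4 dimmest genes that held them. Each is 30 bases of the strand on which the gene is read, 5′ to 3′, with the matched letters in capitals.
IFITM3, chr11:320876-320905, minus strand: aaactgttgaGAAACCGAAActactgggga
ISG15, chr1:1013380-1013409, plus strand: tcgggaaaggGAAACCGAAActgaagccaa
ISG20, chr15:88638937-88638966, plus strand: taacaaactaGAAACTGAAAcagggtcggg
IFI6, chr1:27672266-27672295, minus strand: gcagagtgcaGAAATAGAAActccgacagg
PARP12, chr7:140062942-140062971, minus strand: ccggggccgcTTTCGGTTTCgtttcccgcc
CXCL10, chr4:76023699-76023728, minus strand: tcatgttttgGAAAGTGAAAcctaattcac
GBP1, chr1:89065316-89065345, minus strand: aacgaagtacTTTCAGTTTCatattactct
PARP14, chr3:122680800-122680829, plus strand: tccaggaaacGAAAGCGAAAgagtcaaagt

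The first 4 genes lay at 13.37, 11.29, 11.25 and 10.81 and the last 4 at 6.16, 6.14, 6.09 and 5.90. IFITM3 and ISG15 share the same 10 letters, and PARP12, among the last 4, holds them on the opposite strand. ISG20 and GBP1 likewise share their 10 letters when GBP1 is read on the opposite strand. Of the 28 genes with a match 15 were above the limit, with a median of 8.18, and of the 12 without a match 7 were, with a median of 8.74. Over all 15392 measured genes with a window, 47.2% of those with a match and 59.6% of those without were above the limit. A match describes the letters only, and whether any of these stretches is bound in SH-SY5Y was not measured.

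A part of the interferon-stimulated genes had the same 2 arrays as their highest. IFI44L gave 6.75, 7.61, 6.65, 6.72, 6.42 and 7.54, and IFIT3 gave 6.58, 7.44, 6.60, 6.69, 6.84 and 7.57. As for IFIT1, Mock C and Mock G lay above the other 4 arrays. For 11 of the 49 genes Mock C and Mock G were the 2 highest arrays (22.4%, against 3.78% of all named genes). The 11 were ISG15, IFIT1, IFIT3, IFIT5, IFITM1, IFI44L, RSAD2, CMPK2, SAMD9L, PLSCR1 and SP110. Of these, IFIT3, IFI44L and RSAD2 were mixed and PLSCR1 was dim. The margin could be small: IFITM1 gave 8.39, 9.39, 9.01, 9.23, 9.04 and 9.37, with Mock E close to Mock C and Mock G. IFNB1 on Mock C and Mock G lay within the range of the other arrays. This split was noticed in the values and was not tested, and what the 2 arrays share is not given in the labels.

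**Figure D5:**
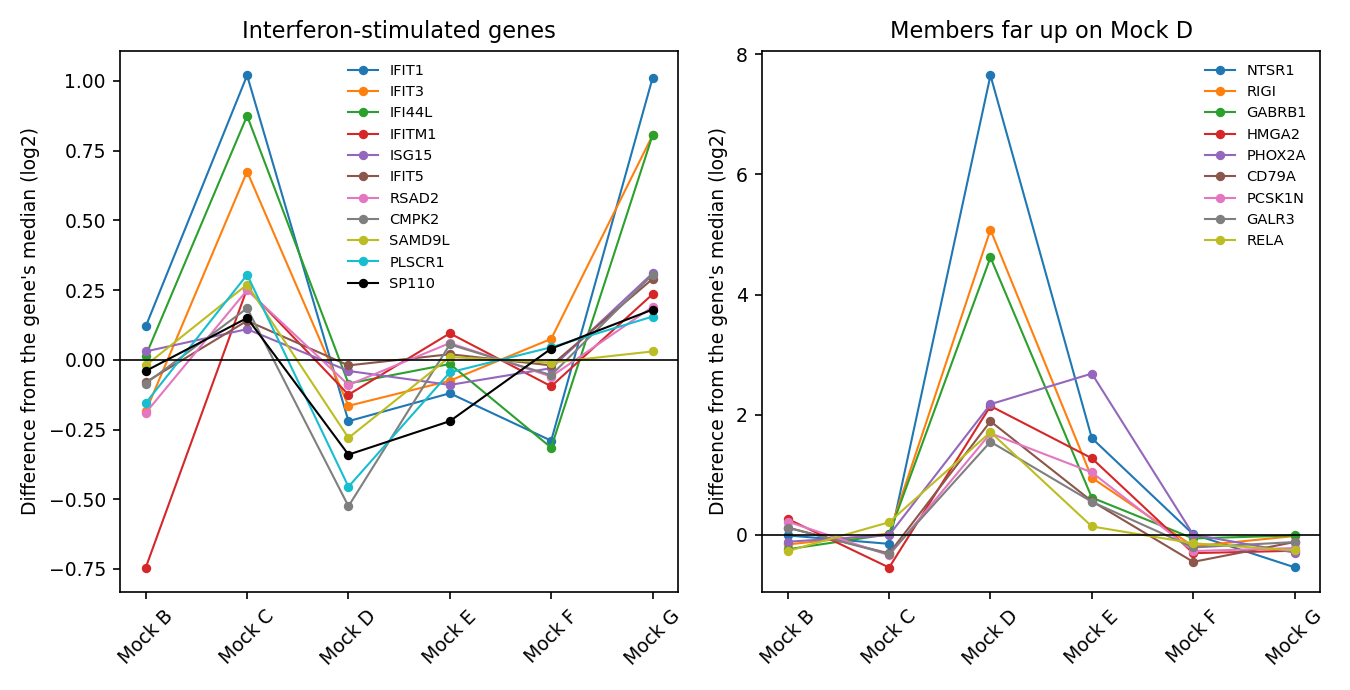
Difference of each array from the gene's median over the 6 Mock arrays (log2), with a line joining the points of each gene to make it traceable. Left, the 11 interferon-stimulated genes for which Mock C and Mock G were the 2 highest arrays, with IFIT1 about 1 unit up on both. Right, 9 members that lay far up on Mock D, led by NTSR1 and RIGI and chosen after their values were seen. Most of them were next highest on Mock E, and PHOX2A was highest there. Other members far up on Mock D are not drawn. Among these, CYP17A1, GRM6 and CXCL8 on Mock E were 0.085, 0.125 and 0.048 over the mean of Mock B, C, F and G.

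Antigen presentation had 17 of 24 genes above the limit (18 without Mock D). All 7 measured class I genes were among them, led by B2M, the light chain of class I molecules, with 14.69, 15.02, 14.45, 14.94, 14.96 and 14.93, and by the heavy chains HLA-G at 14.14 ± 0.04, HLA-C at 13.95 ± 0.09 and HLA-F at 13.35 ± 0.12. HLA-B gave 11.31, 11.25, 11.75, 11.98, 11.08 and 11.22, and its other features lay at 10.195 and 6.77. Class I heavy chains are close copies of each other, so these signals may be shared. TAP1, the peptide transporter, lay at 11.03 ± 0.10 and PSMB9, an immunoproteasome subunit, at 8.53 ± 0.18. NLRC5, the activator of class I genes, was just above the limit, with 7.69, 7.68, 7.94, 7.69, 7.70 and 7.71, and its other feature lay at 6.51. Of 7 class II genes HLA-DRB1 alone was above it, at 8.34 ± 0.47, and CIITA, the activator of class II genes, was dim at 6.24 ± 0.06.

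Of the NF-kB list 14 of 32 genes were above the limit (15 without Mock D), 10 of 16 in the pathway (11 without Mock D) and 4 of 16 cytokines. RELA, the main activating subunit, gave 10.52, 11.00, 12.50, 10.93, 10.65 and 10.53, with Mock D apart. Of its 11 features 10 were highest on Mock D and 1 was lowest there. The 10 lay close together, with means of 10.75 to 11.02, and the other lay at 9.47. Whether the 10 are repeats of 1 probe is not known here, so they do not count as separate readings. NFKBIA, the inhibitor that holds NF-kB in the cytoplasm, lay at 12.75 ± 0.25. The 4 cytokines were the chemokine CCL2 at 14.05 ± 0.22, IL11 at 11.24 ± 0.12, IL33 at 10.34 ± 0.27 and LIF at 9.07 ± 0.19. IL6 was dim, between 6.06 and 6.21. CXCL8, the neutrophil chemokine, gave 6.14, 5.94, 8.00, 6.07, 5.97 and 6.04, over the limit on Mock D alone. Its other feature lay at 5.96 ± 0.07, under the limit on all arrays, with 5.94 on Mock D.

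The lists of other cell types were read in the same way. Of 29 mesenchymal markers 21 were above the limit (72.4%, and 22 without Mock D), with a median of 9.51 at percentile 61.7. VIM, the intermediate filament vimentin, gave 17.80, 17.77, 17.81, 17.95, 17.72 and 17.71 and ranked 24th of all genes. The matrix proteins SPARC at 14.33 ± 0.10 and COL5A1 at 13.12 ± 0.13 and the transcription factor TWIST1 at 13.75 ± 0.20 followed. PRRX1, a transcription factor of mesenchymal neuroblastoma cells, was mixed at 7.44 ± 0.17, and SNAI2 was mixed at 7.96 ± 0.26. In bulk RNA, a few cells with a high level and a low level in every cell cannot be told apart.

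Schwann cell and glial markers had 4 of 14 above the limit. They were CNP at 15.08 ± 0.13 and PMP22 at 14.18 ± 0.15, both myelin proteins, SOX2 at 9.44 ± 0.36 and S100B at 8.43 ± 0.17. SOX10, the defining factor of Schwann cells, ran from 6.18 to 6.45 and was dim. Of 9 adrenal cortex markers CYP17A1, a steroid hydroxylase, was above the limit at 8.57 ± 0.87, with 10.33 on Mock D. NR5A1, the defining factor of the cortex, was dim at 6.29 ± 0.10. Of 12 leukocyte markers CD79A, of the B cell receptor, and CD68, a lysosomal protein, were above the limit, at 11.49 ± 0.87 and 10.33 ± 0.17. PTPRC, the surface mark of all leukocytes, was dim, between 6.78 and 6.91. None of 8 endothelial markers was above the limit. Of 10 epithelial markers 5 were, among them the claudin CLDN4 at 11.64 ± 0.07 and the keratins KRT8 at 9.71 ± 0.49 and KRT18 at 9.65 ± 0.17, while the epithelial adhesion genes EPCAM and CDH1 were dim at 6.55 ± 0.09 and 6.16 ± 0.47.

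Members that departed on Mock D came from several lists. More than 1 log2 unit over the mean of the other 5 arrays there were 21 of 576 members (3.65%) and 544 of all named genes (2.71%). More than 1 unit below were 0 members and 10 of all named genes (0.0498%). NTSR1, a receptor for neurotensin, gave 7.28, 7.14, 14.94, 8.90, 7.30 and 6.75. GABRB1, a GABA receptor subunit, gave 6.72, 6.97, 11.58, 7.58, 6.90 and 6.95, while its other feature gave 6.78 on Mock D. HMGA2, a chromatin protein of embryonic cells, gave 10.29, 9.48, 12.17, 11.30, 9.72 and 9.76, and its other 2 features lay below the limit on all arrays, the brighter at 6.25. Its level and its rise on Mock D rest on 1 of its 3 features. These 3 genes were chosen after their values were seen. In each of them Mock E was the second highest array.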

How the data were processed

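Labelled RNA of SH-SY5Y cells was read on 1-colour Agilent arrays. The input is a table of log2 intensities as deposited by the authors, holding 62976 features for 24 arrays. The sources used here do not give how background was subtracted or arrays were normalised, beyond array names that start with IntNorm. Between arrays the sorted deposited log2 values differed by at most 0.01, and every median was 6.7, so arrays had been forced to 1 distribution and a change common to most genes cannot show. Scanner files were not used here. Precision is limited by the number of arrays.

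From the table, the 6 columns titled Mock were taken by title. Features were named through the platform annotation, updated by RefSeq accession (33702 features) or current or former symbol (2664 and 644), while 41 kept the annotated symbol and 25925 had no gene. For each of 20061 genes (7156 with several features) the feature with the highest mean over the 6 arrays was kept. The mean, SD, rank and percentile were computed with Python 3.11.15, numpy 2.4.6 and pandas 2.3.3. The dim limit was the 90th percentile of the means of 79 measured tissue-restricted genes, of 87 listed. No groups were compared and no p-value is given. Single arrays far from the rest were found by Dixon's criterion (0.625 for 6 arrays). The procedure was tested on simulated data.

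Named genes are up to 4 of the highest and 2 of the lowest mean per list and role, a list of key genes, the 20 brightest genes and the 10 of largest SD among genes above the limit. Genes named outside this rule are said to be so or make up a count of 5 or fewer. The members, lists and limit were chosen with earlier results of these data known. Alternatives changed the feature that stands for a gene, the limit, the number of arrays that must exceed it and the arrays used.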

Additional observations from a re-analysis of the deposited data

Results flagged for a closer look

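Single arrays that lay far from the other 5 for a gene or list are given here, by the gap to the nearest other array over the whole range. Chance puts about 1 in 20 groups of 6 past the criterion. Of all genes above the limit, 15.9% were past it, and for 87.0% of those the far array was Mock D, so these are mostly values of 1 array. What sets that array apart was not tested.

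Far up on Mock D lay RIGI (14.15), RELA (12.50), CHRNB4 (8.85), PRPH (11.49), NLRC5 (7.94), CXCL8 (8.00) and KRT8 (10.67). The same held for NTSR1 (14.94), GABRB1 (11.58), CYP17A1 (10.33) and SLC17A7 (9.42), and for ASIC4 (13.03), DUX4L9 (13.99), HOXA9 (12.69) and NYX (12.81), which are in no list.

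Far down on Mock D lay GATA3 (12.93), SOX11 (13.42), MYC (8.40), GAL (15.34), ADRA2A (7.74), HTR7 (8.25), GFRA1 (7.49) and GFRA2 (8.23). So did TYK2 (7.13), TICAM1 (12.18), NFKBIA (12.26), CCL2 (13.61), IL33 (9.81), PARP14 (5.73, at the dim end), SPARC (14.13), SNAI2 (7.43) and the small RNA gene SNAR-A3 (18.63, where the other 5 arrays shared the top value of the scale). As the criterion is a gap over a range, a small shift passes it where the other arrays lie close together. GATA3 on Mock D was -0.14 from the mean of the other 5, and the median gene above the limit was shifted by -0.14 there too.

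On other arrays, MAOA was high on Mock E (9.63), ADRA2C on Mock B (12.98), IFNA21 on Mock B (8.40), CDH1 on Mock G (7.11), and STING1 (7.49) and LIN28A (6.82) on Mock C. TLR4 was low on Mock F (9.50), and CLDN4 (11.51) and SNAR-B2 (18.29) were low on Mock G.

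Means over the members above the limit stood apart on Mock D for RNA sensing (11.96, high), the Toll-like and NOD-like pathway (9.70, low) and the leukocyte markers (11.86, high, over 2 genes), and on Mock E for granins and neuropeptides (13.17, high). Without RIGI the RNA sensing mean on Mock D was 11.74, against 11.75 to 11.81 on the others. Without TLR1 the Toll-like and NOD-like mean on Mock D was 9.745, against 9.90 to 9.92 on the others. The median shift of all genes above the limit on this array was -0.14, so a low mean there is not particular to that list. The values of RIGI, CXCL8, GABRB1 and NLRC5 on Mock D were not shared by their other feature, which gave 8.28, 5.94, 6.78 and 6.45 there. For HOXA9 and DUX4L9 the mean of the other feature over the 6 arrays was 5.93 and 6.24, at the dim end.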

How the results depend on the processing

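The share of all genes above the limit was 56.3%. It was 56.3% with the brightest feature taken over 24 arrays, 56.5% with the mean of all features, 49.2% with the dimmest feature and 59.5% when the mean alone had to exceed the limit. With the limit at the 75th percentile of the reference genes (6.67), the 95th (7.89) or the 25th percentile of all genes (6.44) it was 66.8%, 52.5% and 70.5%. Leaving out each array in turn gave 55.6% to 58.2%, and the arrays with name suffix 1 or 2 alone gave 55.7% and 59.1%. Of 21 list counts, those that moved by more than 1.5 times were as follows. With the limit at 6.67 transmitter receptors had 43, leukocyte markers 6 and endothelial markers 3 genes above it, and with the limit at 6.44 they had 48, 8 and 4, and adrenal cortex markers 2. With the dimmest feature the glial markers had 2 and the epithelial markers 1. Leaving out 1 array moved no list count by more than 1.5 times. Of 247 levels, 74 moved by more than the SD over arrays with the mean of all features and 84 with the dimmest feature, and 0 with the brightest feature over 24 arrays. With the mean of features TH, NLRC5, CMPK2, HOXA9 and S100B fell under the limit of that setting (7.29) on at least 1 array. With the dimmest feature (limit 7.22) 28 named genes did, among them TH, DDC and GAL. They also included ABAT, CLDN4, COL5A1, HLA-F, LIF, PMP22, GNAS and ZNF865. IFIH1, DHX58 and TLR3 came above both lower limits (6.67 and 6.44), and STING1 above these and above the limits of 7.29 and 7.22. With the limit at 7.89, ALK, CHRNB4, ADRA2A, OPRD1, SOCS1, IFI27, NLRC5, GRIN2D and SLC17A7 were no longer above it on all arrays. No paired analysis was possible because no groups were compared and the values come from no test.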

Other observations

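The 20 brightest genes of all held 7 ribosomal protein genes: RPS2 (18.53), RPS27 (18.20), RPS18 (18.13), RPL13 (17.95), RPLP2 (17.94), RPS21 (17.94) and RPL38 (17.89). Non-coding RNA made up another part, with the small RNA genes SNAR-A3 (18.86), SNAR-B2 (18.41) and SNAR-D (18.14) and the ribosomal RNA gene RNA28SN5 (18.51). The actin gene ACTB lay at 18.12 ± 0.09, GNAS, a G protein subunit, at 18.24 ± 0.20, the ATP synthase subunit ATP5F1E at 18.00 ± 0.07 and the histone gene H4C3 at 17.93 ± 0.11. The rest were ZNF865 (18.57), SLC66A1 (18.36), GPR155 (18.19), MTRNR2L6 (17.97) and VGF. VGF (18.03 ± 0.19) was the sole member of the lists among them. The dimmest features of ZNF865, GNAS and RPS21 lay under the limit, at 6.90, 6.69 and 7.42, so these ranks do not hold for every feature.

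Among genes above the limit the 10 with the largest SD over the arrays were AIF1L (2.92), RIGI (2.07), FOXB1 (1.72), LOC100507547 (1.67), ASIC4 (1.56), DUX4L9 (1.56), NYX (1.48), HOXA9 (1.46), NKX1-2 (1.40) and NACA4P (1.36). AIF1L gave 9.84, 9.93, 16.91, 12.54, 9.68 and 9.58 on Mock B to G. Of the 10 genes 7 were highest on Mock D, FOXB1 and NACA4P on Mock E and NKX1-2 on Mock G.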
